A study of Arabidopsis thaliana with 6 samples.

Results

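Core circadian clock genes were followed in RNA-seq libraries of Arabidopsis thaliana seedlings. The 10 members were taken by gene identifier: CCA1, LHY and RVE8, the pseudo-response regulators PRR9, PRR7, PRR5 and TOC1, GIGANTEA (GI), ELF4 and LUX. All 10 were found among the 27371 identifiers of the expression table. Every library came from whole seedlings of ahl13-1, the insertion line SALK_014014 in AHL13, a gene for an AT-hook motif nuclear localized protein. The seedlings were 14 days old and had grown at 23 °C in long days on sugar-free medium. The Pst hrcC group (3 libraries) was sprayed for 24 hours with Pseudomonas syringae pv. tomato hrcC, a strain without a working type III secretion system, at an optical density of 0.002. The control group (3 libraries) carried the same insertion, and the labels do not say what it was sprayed with. Each group has replicates numbered 1, 2 and 3. The labels give neither a sampling hour nor a batch, and do not say whether the replicates were grown as separate cultures. The p-values therefore cover the spread among these 6 libraries, which may be technical. Wild-type libraries were not analysed here.

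The plant clock is a set of transcription factors that repress and activate each other around the day. CCA1 and LHY are related MYB repressors whose transcripts peak around dawn, and RVE8 is a related MYB protein that activates genes of the afternoon and evening. PRR9, PRR7 and PRR5 are made in turn from morning to afternoon and, with the evening protein TOC1, repress CCA1 and LHY. ELF4, LUX and ELF3 form the evening complex, a repressor that is active around dusk and at night, and GI stabilises the photoreceptor ZTL, which marks TOC1 and PRR5 for degradation. CCA1 and LHY bind the evening element in the promoters of evening genes.

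Levels are FPKM (fragments scaled by transcript length and by the number of mapped fragments) as the authors deposited them, which allows levels of different genes to be compared per length. Differences are between values of log2(FPKM + 1), where the added 1 makes the change of a weakly expressed gene look smaller. A gene was called at a Benjamini-Hochberg adjusted p under 0.05 in limma over the 16923 genes whose mean reached 1 FPKM. Relative depth, estimated from the spacing of low values, ran from 0.818 to 4.89 times that of control replicate 1, and was 4.56 for Pst hrcC replicate 1. All 5 shoot markers and all 10 root markers were above 0 in all 6 libraries. AHL13 was at 2.16 ± 0.24 FPKM after Pst hrcC and 2.32 ± 0.15 FPKM in controls (SD, n = 3 each), which does not check the insertion without a wild type.

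The clock transcripts divided the libraries by replicate number and not by treatment. In both replicate 1 libraries CCA1, LHY, RVE8 and PRR9 were above all 4 libraries of replicates 2 and 3, and PRR5, TOC1, GI, ELF4 and LUX were below all 4. PRR7 overlapped. Over all genes tested, 14.1% lay wholly above and 20.9% wholly below in replicate 1. The comparison of replicate 1 with the others was taken up because earlier results of these data had shown replicate 1 to stand apart in clock genes, so its tests are given as a description. The replicate number cannot be told apart from anything that went with it, such as the growth, harvest or preparation of a set of seedlings.

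**Figure D1:**
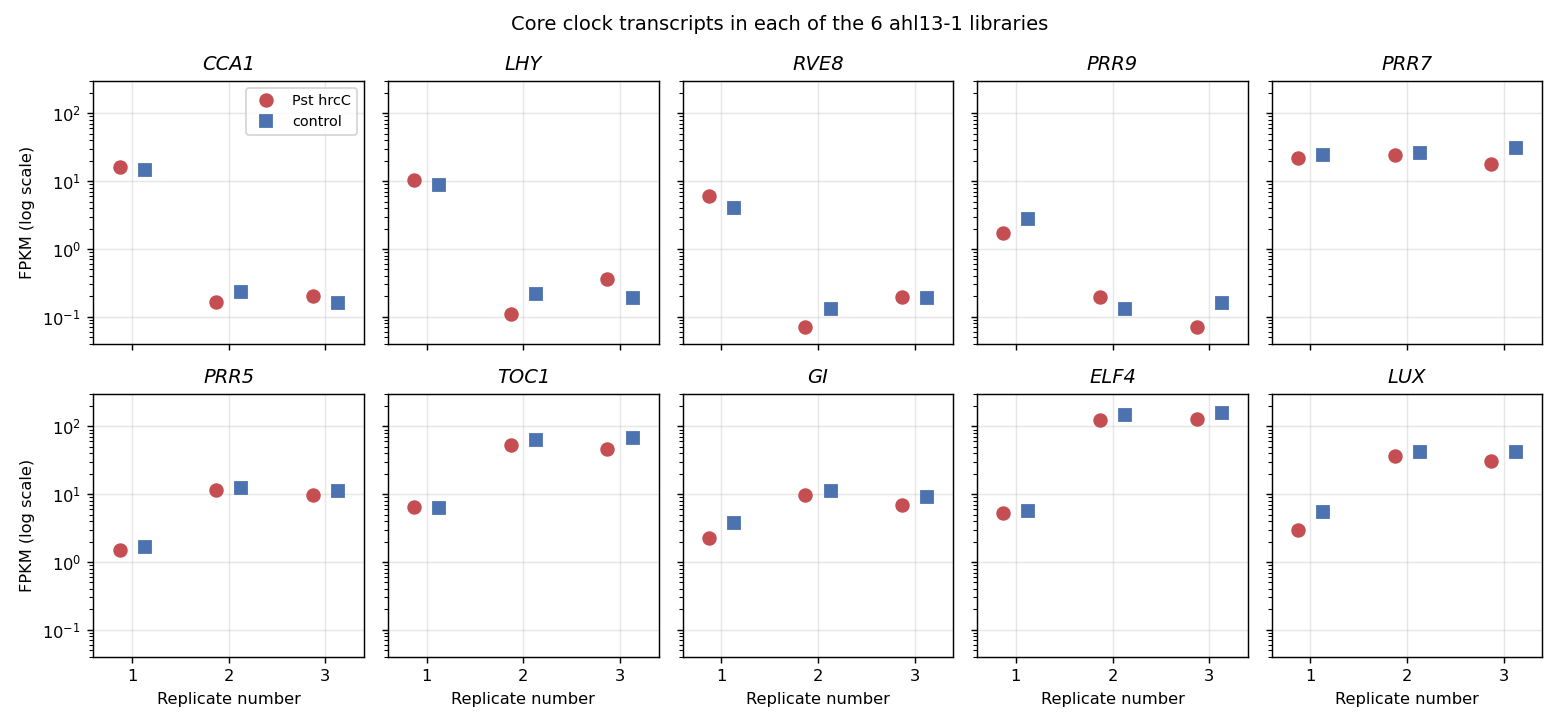
FPKM of the 10 core clock genes (log scale, 1 panel per gene) in the 6 ahl13-1 libraries by replicate number, with Pst hrcC as circles and control as squares. In replicate 1 CCA1 was at 16.0 and 14.5 FPKM where the other 4 libraries were between 0.162 and 0.233 FPKM, ELF4 showed the opposite order, and PRR7 was level.

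Of the 9 members tested, 3 were higher and 5 lower in replicate 1 than in replicates 2 and 3 in limma with treatment as a term, and 1 did not pass. Over all genes 4.05% were called higher and 3.71% lower (7.76% in either direction). CCA1, LHY and RVE8 were under 1 FPKM in all 4 libraries of replicates 2 and 3 and entered the test only through replicate 1. PRR9, with a mean of 0.834 FPKM, was left out by the minimum. Without a minimum it was higher in replicate 1 by 1.48 ± 0.13 (SE, limma adjusted p = 0.0117 among 24422 genes, of which 3.39% were called). A test that treats the 3 replicate numbers alike used the same members, chosen with earlier results known, so it is a description too. Without a minimum RVE8, GI and PRR9 did not pass it (limma F-test adjusted p = 0.0658, 0.0870 and 0.0908). With the minimum it called as many members as the replicate 1 comparison, 8 of 9, where 2.17% of all genes were called. That count fell to 2 without Pst hrcC replicate 1 or Pst hrcC replicate 2 and to 4 without control replicate 1 or control replicate 2, with 1 residual degree of freedom left in each of these fits.

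Among the morning factors, CCA1 (AT2G46830) was at 16.0 FPKM after Pst hrcC and 14.5 FPKM in the control of replicate 1. In replicates 2 and 3 it was at 0.166 and 0.205 FPKM after Pst hrcC and at 0.233 and 0.162 FPKM in controls. Both replicate 1 libraries were thus high and the other 4 near the bottom of the measured range. The log2 difference of replicate 1 from the others was 3.77 ± 0.12 (SE, limma adjusted p = 0.000349), and the ratio of mean FPKM was 79.5. LHY (AT1G01060), which acts alongside CCA1, was at 10.3 FPKM after Pst hrcC and 8.70 FPKM in the control of replicate 1. The other libraries held 0.109 and 0.362 FPKM after Pst hrcC and 0.214 and 0.187 FPKM in controls. The replicate 1 libraries were again far above the other 4, with a ratio of mean FPKM of 43.6. LHY differed by 3.11 ± 0.15 (SE, limma adjusted p = 0.000561). RVE8 (AT3G09600) was at 5.95 FPKM after Pst hrcC and 3.96 FPKM in the control of replicate 1. It was at 0.0706 and 0.197 FPKM after Pst hrcC and at 0.132 and 0.188 FPKM in controls of replicates 2 and 3. Its log2 difference was 2.36 ± 0.17 (SE, limma adjusted p = 0.00211), so all 3 MYB genes were called higher in replicate 1. The sizes depend on the added 1: with 0.1 or 5 in its place CCA1 differed by 5.72 or 1.96, LHY by 4.97 or 1.47 and RVE8 by 4.36 or 0.94, all still called.

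The promoters of CCA1 and LHY are shown because these genes were high in the libraries in which the evening genes were low, and each holds a G-box, the sequence CACGTG, within 250 bases before its annotated start. The sequences are from RefSeq, build TAIR10.1, 5′ to 3′ on the strand of the gene. CCA1 covers chr2:19245341-19245590 on the + strand and LHY chr1:37872-38121 on the - strand, and capitals mark the G-box.
CCA1: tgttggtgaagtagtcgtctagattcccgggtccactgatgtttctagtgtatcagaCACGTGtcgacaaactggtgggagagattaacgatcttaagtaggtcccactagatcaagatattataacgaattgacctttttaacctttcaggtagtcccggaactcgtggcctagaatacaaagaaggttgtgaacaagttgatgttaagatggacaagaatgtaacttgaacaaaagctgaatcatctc
LHY: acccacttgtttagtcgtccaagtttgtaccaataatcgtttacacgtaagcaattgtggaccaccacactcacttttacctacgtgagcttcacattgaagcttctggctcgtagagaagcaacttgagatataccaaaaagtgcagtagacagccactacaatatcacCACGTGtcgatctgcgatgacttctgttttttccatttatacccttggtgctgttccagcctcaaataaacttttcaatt
The G-box begins 193 bases before the start of CCA1 and 80 bases before that of LHY. Within 250 bases before the start a G-box was also found in PRR9 (high in replicate 1), PRR7 (level) and LUX (low). RVE8, high in replicate 1, held none there.

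The 4 pseudo-response regulators, which repress CCA1 and LHY, differed among themselves. PRR9 (AT2G46790), the earliest of them in the day, was at 1.70 FPKM after Pst hrcC and 2.75 FPKM in the control of replicate 1. In replicates 2 and 3 it was at 0.196 and 0.0702 FPKM after Pst hrcC and at 0.129 and 0.161 FPKM in controls. It sided with CCA1 and LHY, and at levels this low its ratio of means, 16.0, is imprecise. PRR7 (AT5G02810) was at 22.3 FPKM after Pst hrcC and 24.3 FPKM in the control of replicate 1. It was at 24.4 and 17.97 FPKM after Pst hrcC and at 25.7 and 30.6 FPKM in controls of replicates 2 and 3. PRR7 was the only member whose replicate 1 values lay inside the range of the others, with a log2 difference of -0.06 (95% interval -0.47 to 0.35, limma adjusted p = 0.858). PRR5 (AT5G24470), of the afternoon, was at 1.48 FPKM after Pst hrcC and 1.69 FPKM in the control of replicate 1. It was at 11.6 and 9.89 FPKM after Pst hrcC and at 12.5 and 11.2 FPKM in controls of replicates 2 and 3. PRR5 was lower in replicate 1 by a ratio of 0.140 in mean FPKM, with a difference in log2 of -2.25 ± 0.12 (SE, limma adjusted p = 0.000774), which was -1.31 with 5 added in place of 1. TOC1 (AT5G61380) was at 6.58 FPKM after Pst hrcC and 6.28 FPKM in the control of replicate 1. It was at 53.9 and 46.3 FPKM after Pst hrcC and at 62.0 and 66.9 FPKM in controls of replicates 2 and 3. Its log2 difference was -2.96 ± 0.14 (SE, limma adjusted p = 0.000561), a fall shared by both treatments.

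GI (AT1G22770) had the smallest called difference among the members. It was at 2.26 FPKM after Pst hrcC and 3.73 FPKM in the control of replicate 1. It was at 9.67 and 6.88 FPKM after Pst hrcC and at 11.1 and 9.05 FPKM in controls of replicates 2 and 3. The log2 difference was -1.36 ± 0.17 (SE, limma adjusted p = 0.0123), and the call was lost without Pst hrcC replicate 1 (limma adjusted p = 0.129) or control replicate 1 (limma adjusted p = 0.0829). With 5 added in place of 1 the GI difference was -0.82 and still called. In the evening complex, ELF4 (AT2G40080), a small protein that helps the complex into the nucleus, was at 5.31 FPKM after Pst hrcC and 5.64 FPKM in the control of replicate 1. It was at 123 and 130.1 FPKM after Pst hrcC and at 145 and 160.2 FPKM in controls of replicates 2 and 3. The ELF4 difference of -4.43 ± 0.12 (SE, limma adjusted p = 0.000186) was the largest of the members on this scale and the 18th in size among the 16923 genes tested. That order depends on the added 1: with 0.1 added in its place the ELF4 difference was -4.64 and those of CCA1 and LHY were 5.72 and 4.97, and the ratio of means was 25.5 for ELF4 (replicates 2 and 3 over replicate 1) and 79.5 for CCA1 (replicate 1 over the others). LUX (AT3G46640), the DNA-binding subunit, was at 3.00 FPKM after Pst hrcC and 5.47 FPKM in the control of replicate 1. It was at 36.6 and 31.2 FPKM after Pst hrcC and at 41.4 and 41.8 FPKM in controls of replicates 2 and 3. LUX was lower in replicate 1, with a difference in log2 of -2.92 ± 0.14 (SE, limma adjusted p = 0.000561). The LUX locus overlaps AT3G46650 on the other strand, and the strand of the libraries is not given, so their reads may mix. AT3G46650 was at 6.29 FPKM after Pst hrcC and 3.50 FPKM in the control of replicate 1, and at 7.13 and 6.19 FPKM after Pst hrcC and 1.56 and 1.61 FPKM in controls of replicates 2 and 3, so it was not low in replicate 1. No annotated gene overlaps the other 9 members.

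TOC1 and LUX are shown as members that were low in replicate 1 and hold an evening element, AAAATATCT on either strand, within 250 bases before the annotated start. TOC1 covers chr5:24674713-24674962 and LUX chr3:17182792-17183041, both on the + strand of TAIR10.1, and capitals mark the element.
TOC1: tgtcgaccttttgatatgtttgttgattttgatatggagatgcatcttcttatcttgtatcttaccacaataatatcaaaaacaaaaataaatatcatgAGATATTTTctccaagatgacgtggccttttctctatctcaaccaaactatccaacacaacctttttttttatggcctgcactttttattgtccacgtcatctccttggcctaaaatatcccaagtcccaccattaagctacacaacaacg
LUX: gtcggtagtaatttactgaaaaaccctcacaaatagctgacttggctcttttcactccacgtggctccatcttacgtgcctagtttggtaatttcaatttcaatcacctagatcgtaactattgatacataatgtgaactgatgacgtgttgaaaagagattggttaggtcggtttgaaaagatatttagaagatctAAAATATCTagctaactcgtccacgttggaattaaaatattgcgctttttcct
The element begins 151 bases before the start of TOC1, where it reads on the opposite strand, and 53 bases before that of LUX.

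**Figure D2:**
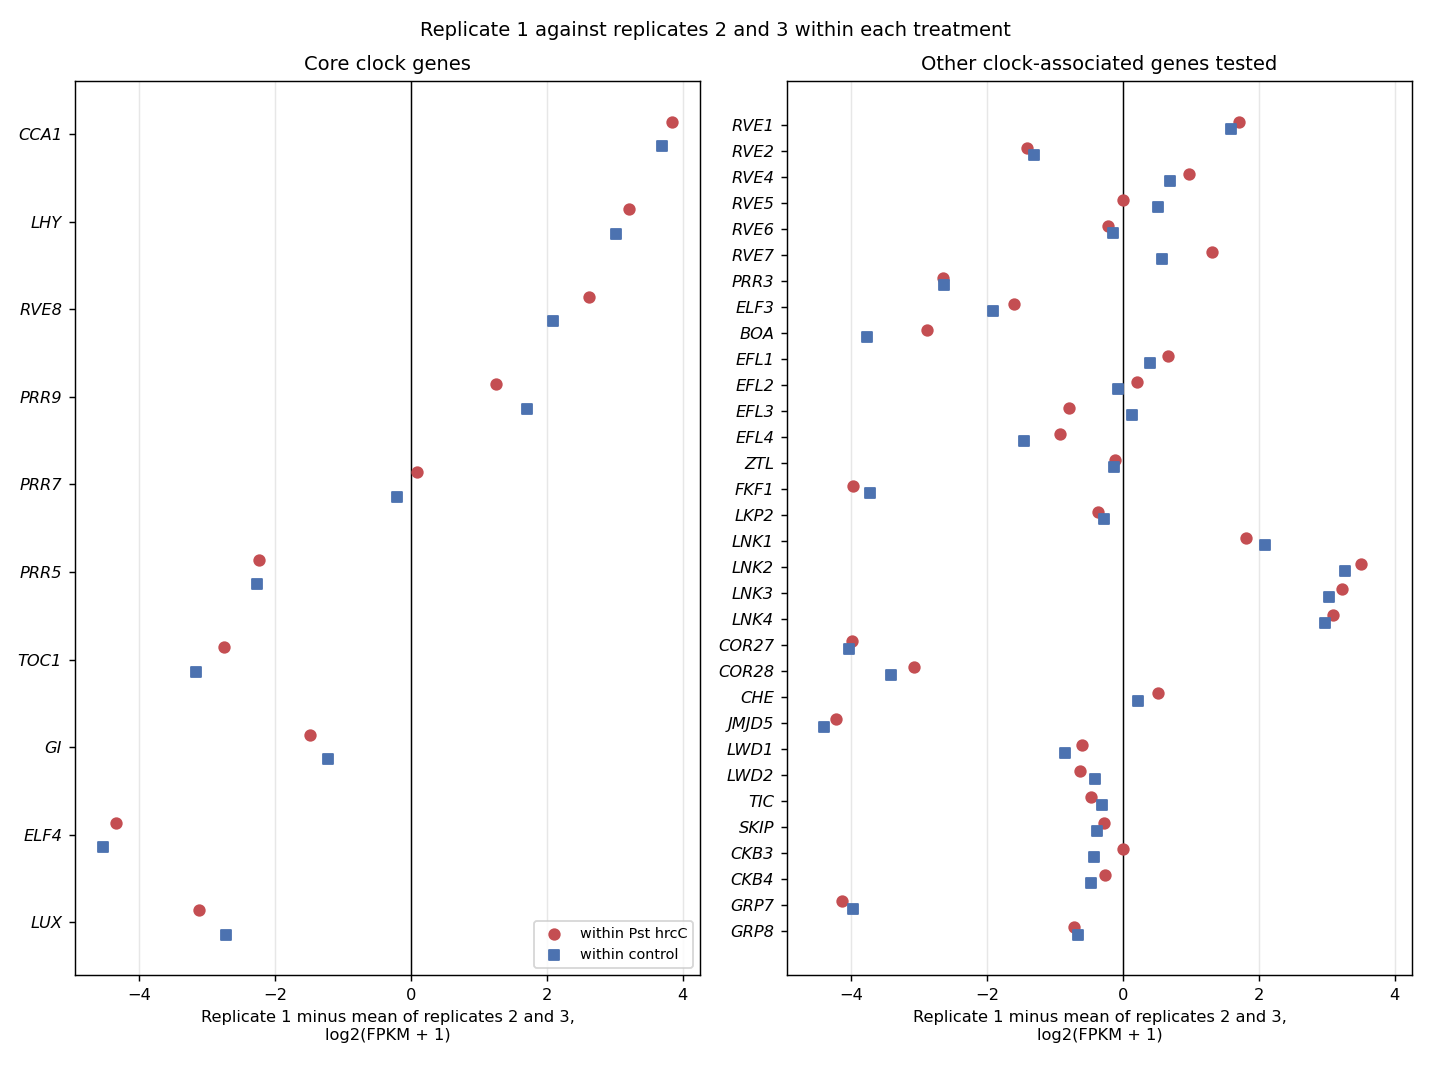
Difference of replicate 1 from the mean of replicates 2 and 3 in log2(FPKM + 1), within Pst hrcC (circles) and within control (squares), for the 10 core clock genes (left) and the 32 other clock-associated genes tested (right). Both treatments gave the same sign for every core gene but PRR7, from 3.84 and 3.69 for CCA1 to -4.34 and -4.53 for ELF4.

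The difference was found within each treatment. Replicate 1 differed from the mean of replicates 2 and 3 by 3.84 for CCA1 within Pst hrcC and by 3.69 within controls. ELF4 differed by -4.34 within Pst hrcC and by -4.53 within controls. PRR7 had opposite signs, 0.08 within Pst hrcC and -0.20 within controls. Averaged over the treatments, replicates 2 and 3 lay close together. The mean of replicate 2 exceeded that of replicate 3 by 0.35 for GI, the largest gap of the 10 members, and by 0.02 for CCA1. For PRR7 the average, 0.09, hides opposite gaps: 24.4 and 17.97 FPKM after Pst hrcC, and 25.7 and 30.6 FPKM in controls. At low levels the added 1 shrinks the gap, as for LHY at 0.109 and 0.362 FPKM after Pst hrcC. Among 8 common reference genes, 1 (GAPC2) was called higher and none lower in replicate 1, beside 4.05% and 3.71% of all genes. Their median difference was -0.04, against -0.06 over all genes tested. That median hides that GAPC2 and UBQ10 lay wholly above and ACT2 wholly below in replicate 1 (14.1% and 20.9% of all genes did). Summed shoot markers were at 18102 FPKM after Pst hrcC and 14887 FPKM in the control of replicate 1, against 13668 to 15544 FPKM in the other 4 libraries. The sum hides that 1 of the 5 shoot markers, RCA, was called higher in replicate 1, by 1.21 ± 0.14 (SE, limma adjusted p = 0.00856). RCA was at 1104 and 1185 FPKM there and at 445 to 559 FPKM in the other libraries. The other 4 shoot markers were not called, where 4.05% of all genes were called higher. Summed root markers were at 74.5 FPKM after Pst hrcC and 71.2 FPKM in the control of replicate 1, against 39.0 to 74.5 FPKM in the others. The part of tissue makeup in the clock differences was not tested.

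Ratios within a library do not depend on how libraries are scaled. The FPKM ratio of TOC1 to CCA1 was 0.412 after Pst hrcC and 0.433 in the control of replicate 1. In replicates 2 and 3 it was 325 and 226 after Pst hrcC and 266 and 413 in controls. With CCA1 at only 0.162 to 0.233 FPKM in replicates 2 and 3, the size of these ratios is imprecise. TOC1 was therefore below CCA1 in both replicate 1 libraries and far above it in the other 4. The ratio of PRR7 to PRR5 was 15.0 after Pst hrcC and 14.4 in the control of replicate 1, and between 1.82 and 2.73 in the other libraries. The ratio of ELF4 to LUX was 1.77 after Pst hrcC and 1.03 in the control of replicate 1, and 3.36 to 4.18 in the others.

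The order of levels among members turned over with it. In replicate 1 PRR7 was highest (mean 23.3 FPKM), followed by CCA1 (15.2 FPKM), LHY (9.51 FPKM) and TOC1 (6.43 FPKM), each apart from the next. ELF4, RVE8, LUX, GI and PRR9 followed with ranges that overlapped from neighbour to neighbour over the 2 libraries, and PRR5 was lowest (1.58 FPKM). In replicates 2 and 3 ELF4 was highest (139.5 ± 16.6 FPKM, SD, n = 4), then TOC1 (57.3 ± 9.05 FPKM), LUX (37.7 ± 4.98 FPKM) and PRR7 (24.7 ± 5.22 FPKM), again with separate ranges. PRR5 (11.3 ± 1.10 FPKM) and GI (9.17 ± 1.74 FPKM) overlapped each other. LHY, CCA1, RVE8 and PRR9 were lowest, with means between 0.139 and 0.218 FPKM and ranges that overlapped between neighbours.

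**Figure D3:**
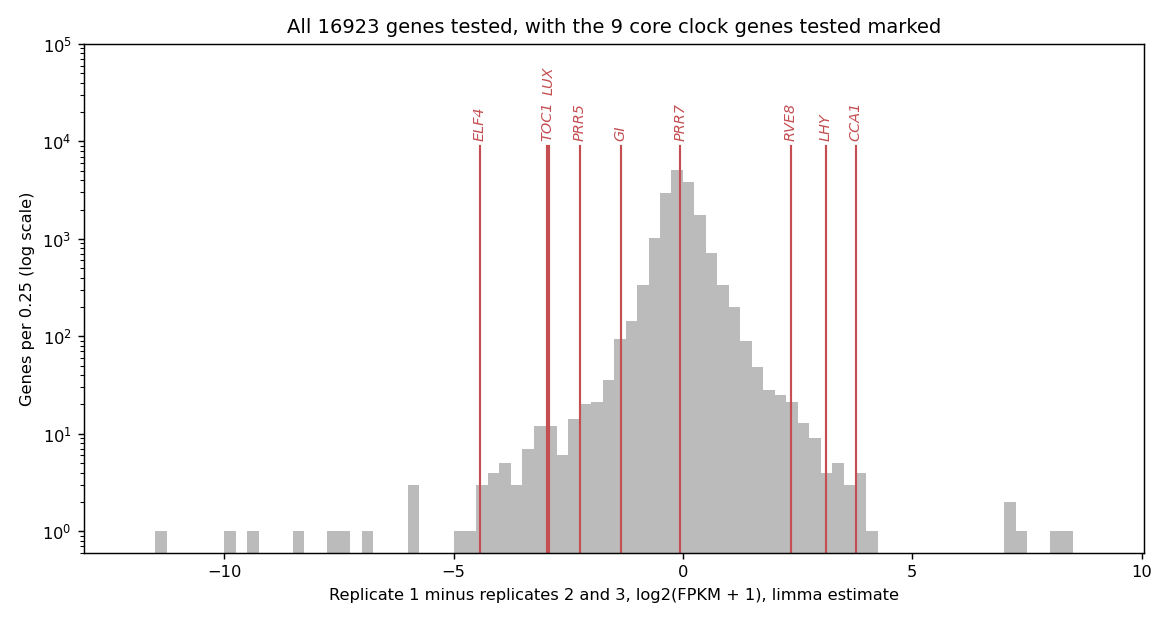
Distribution over all 16923 genes tested of the limma estimate of replicate 1 minus replicates 2 and 3 in log2(FPKM + 1), with gene counts on a log axis and the 9 core clock genes tested marked by vertical lines. ELF4 (-4.43) and CCA1 (3.77) lie far from the centre of the distribution and PRR7 (-0.06) lies in it.

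In size, a log2 difference of at least 2 between replicate 1 and the others was seen in 1.11% of all genes tested. The median size was 0.23 over all genes and 2.92 over the 9 members. CCA1, LHY and RVE8 passed the minimum only through replicate 1, so their large differences follow in part from the minimum. The members were also chosen with earlier results of these data known, so the median and the ranks are a description. By size on the log2(FPKM + 1) scale, which shrinks differences of genes that are low in either group, CCA1 was the 34th, LHY the 60th, TOC1 the 73rd and LUX the 77th of 16923 genes, whereas GI was the 434th.

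The treatment gave no such separation. With treatment as the only term, limma called none of the 9 members after Pst hrcC, where 0.29% of all genes were called, and none had an unadjusted p under 0.05 (6.81% of all genes did). The Pst hrcC and control values of all 10 members overlapped, where 7.66% of all genes lay wholly above and 3.61% wholly below. For every member but PRR7, each group held a replicate 1 library apart from its replicates 2 and 3. Those groups could separate only by a treatment difference larger than the gap between replicate numbers, so their overlap says little about smaller differences. Because the replicate numbers split the libraries within each group, the error of this comparison was wide: the CCA1 difference was 0.03 with a 95% interval of -3.26 to 3.33. With the replicate number as a block, none was called either (0.278% of all genes were), and 2 of 9 members had an unadjusted p under 0.05 in limma, against 11.8% of all genes.

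Within same-numbered pairs the treatment differences were small beside those between replicate numbers. CCA1 differed between Pst hrcC and control by 0.13, -0.08 and 0.05 in pairs 1, 2 and 3, an estimate with the block of 0.03 (95% interval -0.27 to 0.34). LHY differed by 0.22, -0.13 and 0.20, and RVE8 by 0.49, -0.08 and 0.01. None of the 3 morning MYB genes kept a sign in all pairs. LUX was lower after Pst hrcC in every pair, by -0.69, -0.17 and -0.41, an estimate of -0.43 ± 0.14 (SE, limma adjusted p = 0.334 with the replicate block, unadjusted 0.0263). The overlapping AT3G46650 was at 6.54 ± 0.52 FPKM after Pst hrcC and 2.22 ± 1.11 FPKM in controls (SD, n = 3 each). Its part in the LUX values was not tested. GI was lower by -0.54, -0.18 and -0.35, an estimate of -0.35 ± 0.12 (SE, limma adjusted p = 0.355 with the replicate block, unadjusted 0.0310). PRR7 was at 21.6 ± 3.28 FPKM after Pst hrcC and 26.9 ± 3.33 FPKM in controls (SD, n = 3 each), with pair differences of -0.12, -0.07 and -0.74 (limma adjusted p = 0.556 with the replicate block). Besides LUX, GI and PRR7, PRR5 and ELF4 had 3 negative pair differences, so 5 of 9 members tested did, against 13.5% of all genes, and none had 3 positive ones, against 21.2%. After median-of-ratios scaling or quantile normalization it was 6 of 9, with TOC1 added, against 18.3% and 23% of all genes. None of these passed over all genes. The labels do not state this pairing, and the values do not single it out for replicates 2 and 3. Set against control replicate 3, Pst hrcC replicate 2 was higher for GI (9.67 and 9.05 FPKM) and PRR5 (11.6 and 11.2 FPKM). With replicates 2 and 3 crossed, GI and PRR5 therefore lose the 3 negative differences, and LUX, PRR7 and ELF4 keep them. With the block, the 95% intervals of the 9 members, not adjusted over genes, ran from -0.78 (LUX) to 0.57 (RVE8). Those of LUX (-0.78 to -0.07) and GI (-0.66 to -0.05) lay wholly on the negative side. Those of the other members tested reached both signs, which leaves room for modest changes in either direction. The SE, unadjusted p-values and intervals from the fit with the block all rest on the pairing by replicate number.

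**Figure D4:**
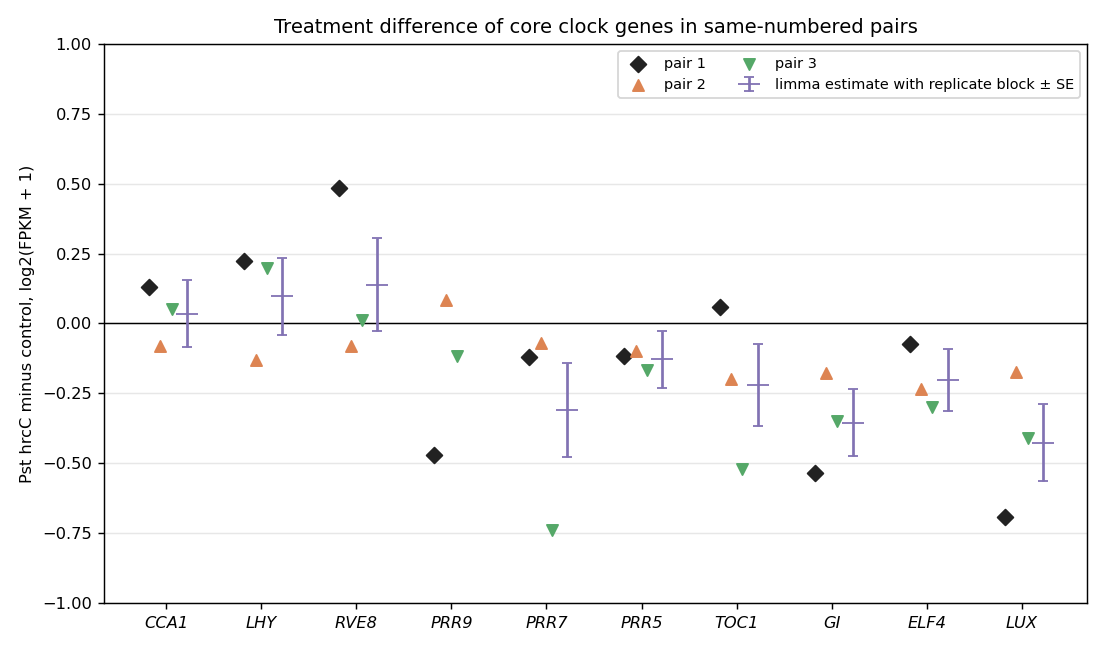
Difference of Pst hrcC from control in log2(FPKM + 1) for each core clock gene in the 3 same-numbered pairs (diamonds and triangles), with the limma estimate and its SE from the fit with the replicate number as a block (PRR9 was not fitted). GI and LUX were below 0 in all 3 pairs, and CCA1, LHY and RVE8 fell on both sides of 0.

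Whether the treatment difference itself depended on replicate 1 was tested by an interaction term. No member was called in limma, none had an unadjusted p under 0.05 (4.5% of all genes did), and 0.0414% of all genes were called. The largest estimates were 0.52 for RVE8 (95% interval -0.24 to 1.28) and 0.42 for TOC1 (95% interval -0.25 to 1.09). With 2 residual degrees of freedom the intervals do not exclude differences of that size.

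A list of 35 other clock-associated genes was compared in the same way, and 15 of the 32 tested did not pass. Of the 32, 5 were higher in replicate 1 and 12 were lower, beside the 4.05% and 3.71% of all genes. All 4 LNK genes, coactivators that work with RVE8, were higher. LNK2 (AT3G54500) was at 58.1 FPKM after Pst hrcC and 53.9 FPKM in the control of replicate 1 and between 3.92 and 5.27 FPKM in the others, a difference of 3.38 ± 0.14 (SE, limma adjusted p = 0.000429). LNK3, LNK4 and LNK1 differed by 3.13, 3.02 and 1.95. LNK3 and LNK4 were under 1 FPKM in all 4 libraries of replicates 2 and 3, so they entered the test only through replicate 1. LNK1 was at 0.572 to 1.04 FPKM in those libraries, with a mean of 0.916 FPKM. It too reached the minimum mean of 1 FPKM only through replicate 1. RVE1 (AT5G17300), a MYB factor that links the clock to auxin, was the fifth gene that rose, by 1.64 ± 0.12 (SE, limma adjusted p = 0.00223).

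The 12 that were lower included partners of the evening members. PRR3 (AT5G60100), a pseudo-response regulator that protects TOC1, was at 0.0615 FPKM after Pst hrcC and listed at 0 in the control of replicate 1, and at 4.31 to 6.22 FPKM in the other libraries. BOA (AT5G59570), the closest relative of LUX, was at 0.596 FPKM after Pst hrcC and listed at 0 in the control of replicate 1, and at 10.3 to 12.7 FPKM in the others. ELF3 (AT2G25930), the scaffold of the evening complex, was lower as well, with a difference of -1.76 ± 0.12 (SE, limma adjusted p = 0.00187). FKF1 (AT1G68050), a blue-light receptor of the ZTL family, had a difference of -3.85 ± 0.18 (SE, limma adjusted p = 0.000561), while its relatives ZTL and LKP2 did not pass (-0.13 and -0.32). COR27 and COR28, regulators of cold and clock genes, had differences of -4.01 and -3.25. JMJD5, a histone demethylase-like protein, had -4.32, and GRP7, an RNA-binding protein under clock control, -4.06. The last was at 238 FPKM after Pst hrcC and 249 FPKM in the control of replicate 1 and at 3567 to 4511 FPKM in the others. RVE2 (-1.36), EFL4 (-1.20), LWD1 (-0.73) and GRP8 (-0.69) were lower by less. PRR3, BOA, FKF1, COR27, COR28 and JMJD5 were under 1 FPKM in both replicate 1 libraries and entered the test only through the other 4. The count of 12 lower was 8 without Pst hrcC replicate 1 or without control replicate 1, with 5 higher in both cases. With a minimum mean of 5 FPKM the count of 5 higher was 1, LNK2, because the other 4 fell under that minimum and were not tested. After Pst hrcC none of the 32 was called in limma, with or without the replicate block, where 0.29% and 0.278% of all genes were. Without the block 1 of 32 had an unadjusted p under 0.05, against 6.81% of all genes, and with it 4 of 32 had, against 11.8%.

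Of 7 photoperiod and growth outputs tested from a list of 8, CDF1, CDF2 and CDF3, repressors of CO, and PIF5, a factor of hypocotyl growth, were higher in replicate 1 (1.86, 1.04, 1.86 and 1.14), and CO itself, which promotes flowering in long days, was lower (-1.58). The shares over all genes were 4.05% higher and 3.71% lower. CO was under 1 FPKM in both replicate 1 libraries and entered the test only through the other 4. The 4 higher and 1 lower became 1 and 0 without Pst hrcC replicate 1 and likewise 1 and 0 without control replicate 1.

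Genes with profiles most like those of CCA1 and GI were found among 8683 other genes whose mean reached 5 FPKM, by the root mean square difference of centred log2(FPKM + 1) over the 6 libraries. For CCA1 these were ERD9 (AT1G10370, 0.15), AT1G13650 (0.17) and LNK2 (0.22). ERD9 was at 45.0 FPKM after Pst hrcC and 49.1 FPKM in the control of replicate 1, at 2.89 and 3.59 FPKM after Pst hrcC and at 2.97 and 3.19 FPKM in controls of replicates 2 and 3. For GI they were UGT85A5 (AT1G22370, 0.17), AT2G01080 (0.18) and AT3G15630 (0.18). UGT85A5 was at 4.11 FPKM after Pst hrcC and 5.57 FPKM in the control of replicate 1, at 12.6 and 13.2 FPKM after Pst hrcC and at 18.1 and 16.2 FPKM in controls of replicates 2 and 3. These genes were chosen on the same 6 libraries, so their likeness to CCA1 or GI is a description of the choice.

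Exact matches to 4 motifs were counted on both strands of the members' upstream regions and of 26693 protein-coding genes of the table, from 1000 bases before to 50 bases after the annotated start. The evening element AAAATATCT was found in PRR9, PRR5, TOC1, GI, ELF4 and LUX, 6 of 10 members, and in 7.71% of all genes. Of these 6, all but PRR9 were low in replicate 1. CCA1, LHY, RVE8 and PRR7 held none in this window. The G-box CACGTG, which reads the same on both strands, was found in CCA1, LHY, RVE8, PRR9, PRR7 and LUX, against 16.0% of all genes. Of these 6, PRR7 was level and LUX was low in replicate 1, and the others were high. The CCA1-binding site AAAAATCT was found in LHY, PRR9 and PRR5 (22.3% of all genes). The LUX-binding site, GATACG or GATTCG, was found in 7 of 10 members (41.4% of all genes). In the 300 bases from 250 before to 50 after the start, the evening element was found in 4 members (2.85% of all genes). These were PRR5, TOC1, LUX and PRR9, the last high in replicate 1 and with its match after the start. GI and ELF4, both low in replicate 1, held none there. In the same 300 bases the G-box was found in 6 members (7.79%), the LUX-binding site in 2 (14.5%) and the CCA1-binding site in 1 (7.96%). A match is a run of letters and does not show that a factor binds there.

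**Figure D5:**
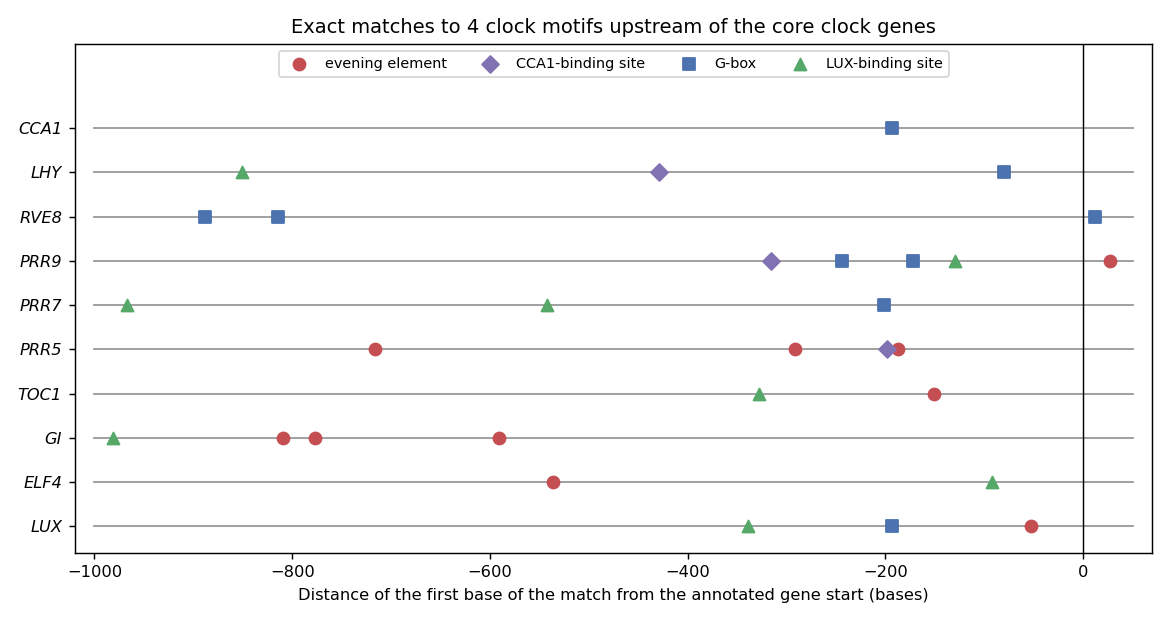
Positions of exact matches to the evening element (circles), CCA1-binding site (diamonds), G-box (squares) and LUX-binding site (triangles) by distance in bases from the annotated start of each core clock gene, from 1000 before to 50 after it. PRR5 and GI each held 3 evening elements, and the 6 genes with a G-box include CCA1, LHY, RVE8 and PRR7, which held no evening element.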

How the data were processed

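RNA-seq was deposited as FPKM per gene for 6 ahl13-1 libraries, 3 per group. Per the submitters' processing notes, FastQC, TopHat2 2.1.1 and Cufflinks 2.2.1 were used with the TAIR10 genome. For settings, annotation and strand, the sources used here give nothing. FPKM values were used as the authors deposited them, and no counts are given, so intervals that need counts are not given and depth is known only as a ratio between libraries.

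Values were taken as log2(FPKM + 1), with the FPKM deposited by the authors, and fitted with limma 3.58.1 (R 4.3.3, variance trend) on genes whose mean reached 1 FPKM. Tables and figures were made with Python 3.11.15, numpy 2.4.6, pandas 2.3.3 and matplotlib 3.10.9. Groups came from the labels. The fits were Pst hrcC against control, replicate 1 against replicates 2 and 3 with treatment as a term, any difference between replicate numbers with treatment as a term, and an interaction. p-values were adjusted over all genes tested. The alternatives were the pseudocount, the minimum, the scaling, the variance trend, the replicate block and leaving out each library. The script was tested on simulated data. The members and gene lists were chosen with earlier results of these data known. All 10 members are named, with listed clock genes and, for CCA1 and GI, the 3 genes most like each.

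Whether replicate numbers pair the libraries was read from the data: deviations from group means correlated across 16923 genes at 0.43, 0.17 and 0.13 in pairs 1, 2 and 3, all over 0.1, and the labels state no shared batch. Pst hrcC replicate 2 and control replicate 3 correlated at 0.21, above pairs 2 and 3, so the values set replicate 1 apart and do not single out the pairing of replicates 2 and 3. Promoter sequences and gene positions are from RefSeq TAIR10.1, and 26703 of 27371 identifiers (97.6%) matched its table.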

Additional observations from a re-analysis of the deposited data

How the results depend on the processing

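The counts of members called after Pst hrcC and for the interaction were 0 in every setting run, and the replicate block changed no call of a member (0 with and without it). For replicate 1 against the others the count was 6 to 9 in all settings and 6 to 8 with 1 library left out. For any difference between replicate numbers it ran from 2 to 8 with 1 library left out. The interaction could not be fitted without a replicate 1 library.

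Signs changed only in estimates that did not pass. The CCA1 treatment difference was -0.0030 after median-of-ratios scaling and -0.013 after quantile normalization. The PRR7 difference of replicate 1 was 0.016 under median-of-ratios scaling. The PRR5 interaction was -0.033 with a pseudocount of 0.1, -0.024 after median-of-ratios scaling and -0.030 after quantile normalization. With 1 library left out, treatment differences ran from -1.25 to 1.27 for CCA1, -0.97 to 1.10 for LHY, -0.23 to 0.84 for RVE8, -0.88 to 0.62 for PRR5, -1.28 to 0.70 for TOC1, -0.76 to 0.14 for GI, -1.71 to 1.24 for ELF4 and -1.33 to 0.61 for LUX. The PRR5 interaction ran from -0.089 to 0.13 and the PRR7 difference of replicate 1 from -0.20 to 0.083. A pseudocount of 0.1 or 5 moved the differences of replicate 1 to 5.72 or 1.96 for CCA1, 4.97 or 1.47 for LHY and 4.36 or 0.94 for RVE8, and 5 moved PRR5 to -1.31 and GI to -0.82, with no call lost. The causes were not tested.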
